A study of Mus musculus with 288 samples.

Results

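The kidney of mice kept in room air was compared between dusk and dawn. Dusk was taken as the 6 libraries labelled 10:30 and 13:30, and dawn as the 6 libraries labelled 22:30 and 1:30, which together are 12 of the 288 libraries of the series. Genes were kept when their mean over these 12 libraries was at least 5 TPM, a share of the transcript pool corrected for transcript length and scaled to a fixed total, and 9068 of the 35904 genes in the file met this. Gpatch3 lay just inside that limit with a mean of 5.0039 TPM and Epm2a just outside it with 4.9997 TPM. The study set mice exposed to intermittent hypoxia (IH) beside mice in normoxia and sampled several organs around the clock. Every kidney used for the dusk-dawn comparison came from a wild-type C57BL/6J male, 8 weeks old when the exposure began. Each mouse spent 7 days in normoxia as the control for IH. The animals were then moved into constant normoxic darkness for 2 days and killed on the second of these at intervals of 3 h, so that dusk and dawn are subjective times. Each time point had 3 mice and each library held the RNA of 1 kidney sample, without agents or transgenes. The labels do not say from which event the hours were counted.

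Cells of the kidney keep time with a feedback loop of transcription. ARNTL (also called BMAL1) pairs with CLOCK or NPAS2 and activates genes through E-boxes, among them the Per and Cry genes, whose proteins then block the pair, while the REV-ERB and ROR receptors compete at ROR elements to set the level of Arntl itself. DBP, TEF and HLF carry the rhythm on to further genes through D-boxes, where NFIL3 competes with them. In the kidney the clock is best known for daily changes in blood flow, filtration and the excretion of sodium, potassium and water.

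Values are given as scaled TPM, that is, TPM divided by a factor per library that brings most genes to a common level. Differences are dusk minus dawn on the log2(scaled TPM + 0.5) scale, tested with limma and adjusted over all genes tested by the Benjamini-Hochberg method. The added 0.5 understates the change of low genes. The depth of the libraries cannot be read from TPM, and no interval of counting error was computed. The p-values of the dusk-dawn test measure the spread between mice within a group, which includes any gap between its pooled hours. In bulk RNA, fewer cells of a type and less RNA per cell cannot be told apart.

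Several libraries stood apart. The dawn library 1:30 replicate 1 and the library 4:30 replicate 1 differed by a median of 0.0304 on the log2 scale over the 4573 genes averaging 20 TPM or more, where the next closest of the 276 pairs of normoxic kidney libraries differed by 0.0770 and the middle pair by 0.144. Their values were not identical, and 4:30 is in neither group, so 1 of the pair entered the dusk-dawn comparison, and which hour the RNA came from cannot be told. In the other 2 libraries of 1:30 the processed pseudogene Gm19220 took 36.3% and 28.1% of all TPM, against 2.23% to 5.44% in the other 10. All 10 adrenal gland markers were listed, and their summed level was 68.7 to 131 scaled TPM in 4 libraries (10:30 replicates 1 and 2, 13:30 replicate 1 and 22:30 replicate 2) and at most 10.2 in the other 8, with a dusk median of 52.2 and a dawn median of 1.78. The steroid enzymes Cyp11b2 and Cyp21a1 and the adrenaline enzymes Th, Dbh and Pnmt were at 0 in at least 1 library of each group. None of the 3 adrenal markers that met the TPM limit passed the test, and the part of adrenal RNA in the results was not tested. Kidney markers stood at high levels throughout: the 8 proximal tubule markers summed to 38095 to 67135 scaled TPM and the 5 markers of the thick ascending limb to 2236 to 2847, and none of the tubule or collecting duct markers passed the test. Skeletal muscle markers summed to at most 4.48 with Myh4 at 0 everywhere.

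In the kidney, 414 of 9068 genes (4.57%) differed between dusk and dawn at an adjusted p of 0.05. Of these, 246 (2.71% of genes tested) were higher at dusk and 168 (1.85%) were lower at dusk. The difference was at least 1.5-fold for 79 of them (0.871%), called genes below, with 39 higher and 40 lower at dusk, and 17 reached 2-fold. The median difference over all genes was 0.03. With TPM used as deposited, without scaling, the median moved to 0.12 and 77.5% of the called genes were higher at dusk in place of 49.4%, so the balance of directions rests on the scaling. In 51 of the 79 called genes no dusk library overlapped a dawn library, as in 297 (3.28%) of all genes tested. Without the 2 libraries rich in Gm19220 there were 66 calls, of which 54 were among the 79. Leaving out both libraries of the close pair gave 85 calls with 69 of the 79 among them, and leaving out the 4 libraries with adrenal markers gave 76 with 51 among them. The last of these settings kept 8 libraries, fewer of them from dusk than from dawn. Without the time point 1:30 altogether, 81 genes were called and 51 of them were among the 79. Of 72 genes that are named here or belong to a list and passed the adjusted p of 0.05, 31 passed it in each of these 4 settings, 22 missed it without the Gm19220-rich libraries, 4 without the close pair, 30 without the libraries with adrenal markers and 22 without 1:30. Every called gene that could be tested in these settings had the same sign as in all 12 libraries. The 3 adrenal markers that were tested, Star (1.41 ± 0.93, adjusted p = 0.422), Hsd3b1 (1.56 ± 1.36, adjusted p = 0.550) and Cyp21a1 (1.38 ± 1.11, adjusted p = 0.517), had large differences and overlapping groups, and they lie among the uncalled points far from 0 in the plot of level against difference.

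**Figure D1:**
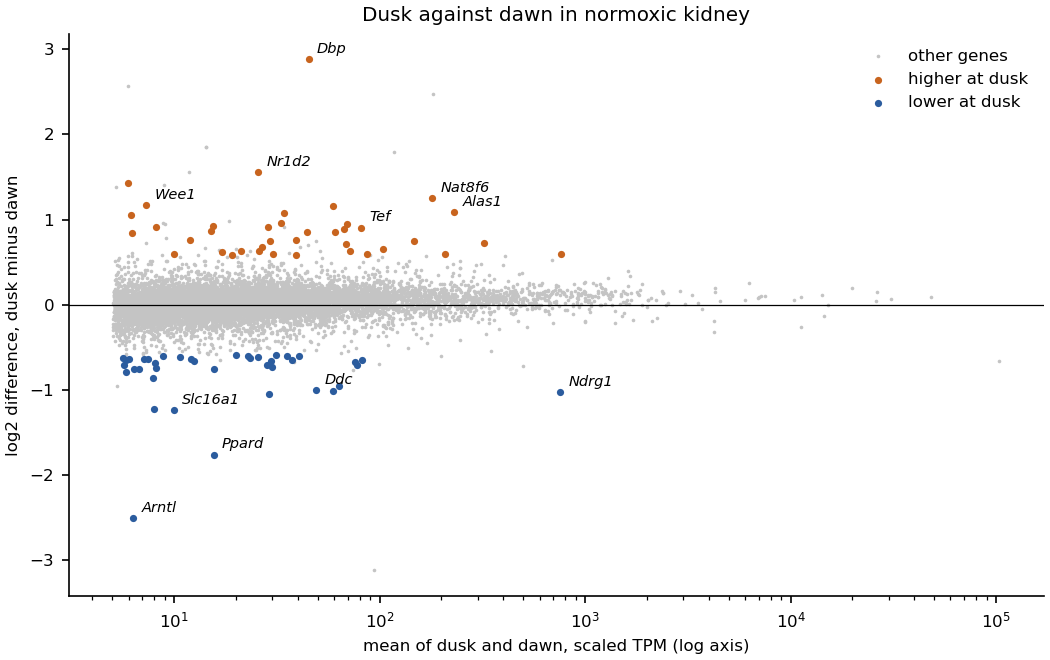
Each point is 1 of the 9068 genes, with its mean level over the 12 libraries on a log10 axis (scaled TPM) and its log2 difference (dusk minus dawn) on the other; orange points are the 39 called genes higher at dusk and blue points the 40 lower at dusk. The most negative labelled clock gene is Arntl at -2.50 and the most positive Dbp at 2.88, while most genes lie close to the median of 0.03.

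Of the 2 tested activators of the clock, Arntl was lower at dusk. It ran from 0.487 to 2.62 scaled TPM in the 6 dusk libraries, with a median of 1.27, and from 4.30 to 14.8 in the 6 dawn libraries, with a median of 12.1. No dusk library reached the lowest dawn library, which was 1:30 replicate 1. The log2 difference was -2.50 ± 0.30 (SE, n = 6 and 6, adjusted p = 0.000348), and -2.73 without the close pair. Clock itself, its partner, ranged from 6.35 to 8.67 at dusk and from 6.47 to 10.9 at dawn and did not pass the test (-0.14 ± 0.12, adjusted p = 0.532). Npas2, the other partner, had a mean of 2.99 TPM and so lay under the limit. With the limit lowered to 1 TPM, where 537 of 12829 genes (4.19%) passed, it was lower at dusk by the widest margin among clock genes (-2.75 ± 0.23, adjusted p = 2.58e-05), from at most 0.721 scaled TPM at dusk to at least 2.40 at dawn. These levels are the check of the labels: Arntl is known to peak near the end of the night in mouse organs, and it was high in the libraries called dawn.

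One of the RefSeq start sites of Arntl, the member of the loop under the ROR receptors, holds a ROR element, TAGGTCA, within the 250 bases before to 50 after it. The window is chr7:113207261-113207560 (GRCm38.p6, plus strand), and the motif is in capitals.
Arntl: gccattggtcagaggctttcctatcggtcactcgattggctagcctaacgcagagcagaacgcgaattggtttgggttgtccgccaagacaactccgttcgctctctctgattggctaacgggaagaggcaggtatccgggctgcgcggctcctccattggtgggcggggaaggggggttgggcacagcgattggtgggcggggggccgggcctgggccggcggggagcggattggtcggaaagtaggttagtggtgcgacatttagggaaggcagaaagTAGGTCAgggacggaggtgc
On either strand, TAGGTCA stood in the promoter of 2.97% of the 27025 genes of the RefSeq table, of 3.23% (1 of 31) of the genes called higher at dusk and of 9.68% (3 of 31) of those called lower, which besides Arntl were Fabp7 and Leo1. A promoter was matched for 31 of the 39 and 31 of the 40 called genes.

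The REV-ERB and ROR receptors, which act on that element, split by the hour of their peak. Nr1d2 (REV-ERBβ) ran from 30.8 to 45.2 scaled TPM at dusk (median 36.5) and from 5.24 to 31.6 at dawn (median 12.8). The groups overlapped through a single dawn library, 1:30 replicate 1. It was higher at dusk (1.56 ± 0.31, adjusted p = 0.0106), by 1.82 without the close pair (adjusted p = 0.000732), while without the 4 libraries with adrenal markers its adjusted p was 0.177. Nr1d1 (REV-ERBα) ranged from 5.43 to 15.0 at dusk and from 1.56 to 26.6 at dawn, and the dawn libraries fell apart by hour, with means of 2.22 at 22:30 and 17.8 at 1:30. It did not pass the test (0.38 ± 0.55, adjusted p = 0.729), although its level fitted a 24-hour cosine with an amplitude of 1.81 on the log2 scale and a peak at 6.41 h (adjusted p = 1.03e-09). Without 1:30 its difference was 1.73 (adjusted p = 0.00697). Rora did not pass the dusk-dawn test either (0.18 ± 0.09, adjusted p = 0.293). Rorb averaged 0.0461 TPM and was not tested.

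Among the repressors, Per2 was higher at dusk, from 6.92 to 15.4 scaled TPM (median 10.8) against 3.57 to 7.07 (median 5.23). Only the lowest dusk and the highest dawn library met (0.91 ± 0.19, adjusted p = 0.0133), and the adjusted p was 0.0580 without the 2 libraries rich in Gm19220 and 0.0814 without 1:30. Cry1 and Cry2, its partners, did not pass. Cry1 covered 2.78 to 9.03 at dusk and 1.33 to 8.48 at dawn (0.39 ± 0.38, adjusted p = 0.594), and its means climbed from 3.89 at 10:30 to 7.80 at 13:30 and lay at 7.59 at 22:30 and 2.10 at 1:30. Cry2 ran from 5.44 to 7.61 against 2.97 to 6.49 (0.45 ± 0.14, adjusted p = 0.0867). At the lower limit of 1 TPM, Per3 (1.39 ± 0.23, adjusted p = 0.00355) and Ciart (1.80 ± 0.26, adjusted p = 0.00189), a repressor of the ARNTL pair, were higher at dusk. Per1 stood at 0.92 ± 0.25 with an adjusted p of 0.0536. The DEC repressor Bhlhe40 was higher at dusk, at 25.3 to 48.9 (median 38.4) against 17.7 to 27.4 (median 20.5), a difference of 0.75 ± 0.15 (adjusted p = 0.0112, and 0.0872 without 1:30). Its relative Bhlhe41, at a mean of 1.02 TPM, differed in the same direction at the lower limit (0.65 ± 0.14, adjusted p = 0.0188).

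**Figure D2:**
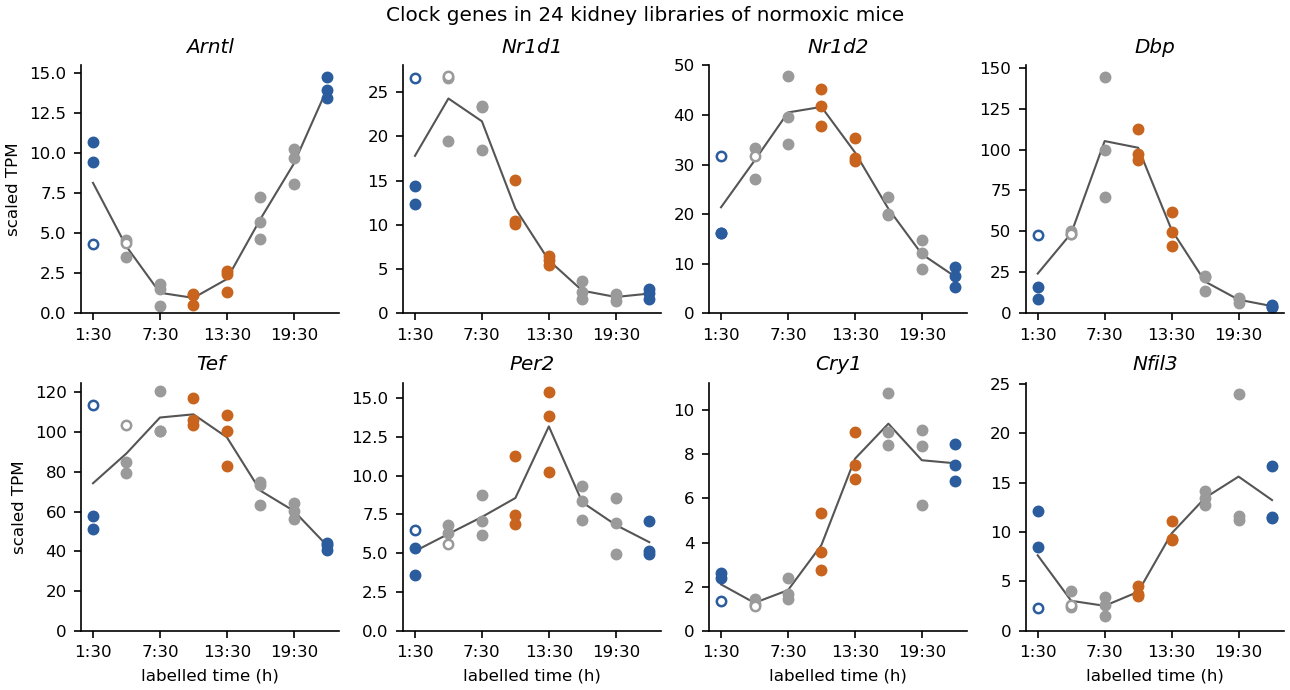
Scaled TPM of 8 clock genes in all 24 kidney libraries against the labelled time (h), with 1 point per library, a line through the means of 3 mice, orange points for dusk, blue for dawn and grey for the other hours; open circles are the close pair, 1:30 replicate 1 and 4:30 replicate 1. Arntl falls to its lowest mean at 10:30 and reaches its highest at 22:30, Dbp runs opposite to it, and the open circle at 1:30 lies among the 4:30 points.

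Of the 4 output factors that act at D-boxes, 3 were higher at dusk. Dbp had the largest difference of all called genes toward dusk: it ran from 41.3 to 113 scaled TPM at dusk (median 77.6) and from 4.01 to 48.0 at dawn (median 6.94). The single dawn library above the lowest dusk library was again 1:30 replicate 1, at 48.0, beside 48.1 to 50.2 in the 4:30 mice, while the other 5 dawn libraries reached at most 15.9. The difference was 2.88 ± 0.49 (adjusted p = 0.00355), 3.34 without the close pair (adjusted p = 9.63e-05) and 2.56 without the 4 libraries with adrenal markers, where it missed the threshold (adjusted p = 0.10). Tef behaved alike, from 83.2 to 117 (median 105) against 40.9 to 114 (median 47.5). Its difference of 0.91 ± 0.20 (adjusted p = 0.0169) became 1.12 without the close pair, and it missed the threshold without the 2 Gm19220-rich libraries (adjusted p = 0.0595) and without the 4 libraries with adrenal markers (adjusted p = 0.151). The third, Hlf, was higher by less than 1.5-fold (0.43 ± 0.12, adjusted p = 0.0465), and missed the threshold without 1:30 (adjusted p = 0.0700). It also missed it without the Gm19220-rich libraries (adjusted p = 0.0813) and without the libraries with adrenal markers (adjusted p = 0.0852). The competitor Nfil3 stood at 3.55 to 11.1 against 2.29 to 16.7 and did not pass (-0.51 ± 0.39, adjusted p = 0.496), and its fitted peak was at 18.8 h.

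Of 6 tested genes that modify clock proteins or feed back on them, 2 were higher at dusk. Usp2, a deubiquitinase, was higher at dusk (45.7 to 70.4 scaled TPM, median 58.6, against 25.7 to 40.2, median 30.0), and its libraries did not overlap (0.86 ± 0.12, adjusted p = 0.00100). Nampt, the rate-limiting enzyme of NAD salvage, was higher by 0.55 ± 0.08 (adjusted p = 0.00170), also without overlap (51.6 to 66.4 against 35.1 to 47.0). The casein kinases Csnk1d (-0.05 ± 0.06, adjusted p = 0.703) and Csnk1e (0.00 ± 0.08, adjusted p = 0.988) and the ubiquitin ligase part Btrc (0.05 ± 0.06, adjusted p = 0.683) did not pass, and neither did Fbxl21 and Timeless at the lower limit of 1 TPM. Over the 6 clock lists together, 20 of 28 genes met the limit of 5 TPM, and of these 8 were higher and 1 was lower at dusk. These counts, and those of the single clock lists, stand beside 2.71% of all genes tested that were higher and 1.85% that were lower.

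Tef and Coq10b carry E-boxes, the element of the ARNTL pair, in their promoters, and Coq10b also a D-box. Coq10b, a mitochondrial protein that binds coenzyme Q, was among the genes with the largest rise toward dusk described next. The Tef window is chr15:81802423-81802722 and the Coq10b window chr1:55052520-55052819, both on the plus strand of GRCm38.p6, with the E-box CACGTG and the D-box, which reads TTACATAA on this strand, in capitals. The third window, Slc16a1 at chr3:104638414-104638713 on the plus strand, is shown since this gene was lower at dusk and holds the same E-box letters.
Tef: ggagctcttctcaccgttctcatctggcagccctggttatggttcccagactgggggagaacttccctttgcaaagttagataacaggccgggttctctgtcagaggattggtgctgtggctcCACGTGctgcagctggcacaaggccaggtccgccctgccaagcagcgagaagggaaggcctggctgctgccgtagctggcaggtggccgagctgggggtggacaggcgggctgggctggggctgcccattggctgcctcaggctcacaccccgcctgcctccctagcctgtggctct
Coq10b: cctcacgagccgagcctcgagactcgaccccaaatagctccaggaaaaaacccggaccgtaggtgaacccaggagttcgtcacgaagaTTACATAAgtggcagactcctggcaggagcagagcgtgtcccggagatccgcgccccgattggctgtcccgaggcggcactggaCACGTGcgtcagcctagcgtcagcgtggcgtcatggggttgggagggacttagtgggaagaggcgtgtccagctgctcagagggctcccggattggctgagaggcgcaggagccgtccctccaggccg
Slc16a1: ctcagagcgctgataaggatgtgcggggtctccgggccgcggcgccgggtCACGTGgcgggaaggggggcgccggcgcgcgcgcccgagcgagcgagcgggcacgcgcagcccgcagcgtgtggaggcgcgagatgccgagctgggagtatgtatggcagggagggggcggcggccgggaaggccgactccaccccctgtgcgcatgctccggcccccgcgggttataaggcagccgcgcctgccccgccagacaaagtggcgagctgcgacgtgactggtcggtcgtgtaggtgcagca
CACGTG stood in the promoter of 19.4% (6 of 31) of the genes called higher at dusk, 12.9% (4 of 31) of those called lower, 12.5% of the genes tested and 8.09% of all 27025 genes. For the D-box TTANGTAA, searched on both strands, the shares were 9.68% (3 of 31), 0% (0 of 31), 2.04% and 2.72%. Counted per gene over all its windows, both motifs were found in 0.152% of all genes and in Ak4 and Coq10b among the called ones. In Ak4 they lay in separate windows, while Coq10b held both in the same window. A heat shock element written as GAANNTTC was found in 9.68% (3 of 31), 6.45% (2 of 31), 6.98% and 9.04%. A match of letters is a description of the window and not a site of binding.

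Apart from the clock, the largest rises toward dusk without overlap between libraries were in genes of several kinds. Wee1, a kinase that holds back entry into mitosis, had the smallest adjusted p of all genes: it ran from 8.13 to 11.6 scaled TPM at dusk (median 10.8) and from 3.87 to 4.61 at dawn (median 4.41), a difference of 1.17 ± 0.08 (adjusted p = 5.19e-06). Coq10b ran from 41.7 to 53.5 (median 47.5) against 17.2 to 25.3 (median 22.6), with 1.08 ± 0.09 (adjusted p = 2.13e-05). All 6 dusk mice thus lay well above all 6 dawn mice in both genes. Lonrf1, a RING finger protein with a LON domain, was at 7.35 to 10.7 against 3.07 to 4.47 (1.05 ± 0.10, adjusted p = 6.83e-05), and the tetraspanin Tspan4 at 70.2 to 103 against 40.0 to 52.8 (0.89 ± 0.09, adjusted p = 7.65e-05). Susd3, a sushi domain protein, was at 69.4 to 118 against 35.6 to 56.6 (0.95 ± 0.12, adjusted p = 0.000708). The sodium pump interacting protein Nkain1 (0.87 ± 0.12, adjusted p = 0.00122), the nicotinamide riboside kinase Nmrk1 (0.86 ± 0.14, adjusted p = 0.00221) and the cell cycle regulator Rgcc (0.76 ± 0.12, adjusted p = 0.00194) completed the group with Usp2 and 3 genes of the Nat8f family. Each of these 12 genes remained past the adjusted p of 0.05 without the Gm19220-rich libraries, without the close pair, without the libraries with adrenal markers and without 1:30.

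The Nat8f genes, which encode N-acetyltransferases of the NAT8 family, lie in tandem on chromosome 6 (minus strand), and 4 of them were called higher at dusk. The family was chosen for a closer look after its values were seen. Nat8f6 was at 169 to 321 scaled TPM at dusk (median 266) and 88.0 to 117 at dawn (median 106), a difference of 1.25 ± 0.14 (adjusted p = 0.000136). Nat8f7 (18.4 to 23.2 against 8.99 to 13.0, 0.92 ± 0.09, adjusted p = 6.83e-05) and Nat8f3 (31.1 to 46.0 against 17.7 to 24.2, 0.92 ± 0.10, adjusted p = 0.000136) were likewise free of overlap. In Nat8f5 the groups overlapped (48.5 to 116 against 22.6 to 55.1, 1.16 ± 0.24, adjusted p = 0.0121). Nat8 itself rose by less than 1.5-fold (0.52 ± 0.12, adjusted p = 0.0249), while Nat8f1 (0.25 ± 0.08, adjusted p = 0.0883) and Nat8f2 (0.13 ± 0.10, adjusted p = 0.499) did not pass. Without 1:30, Nat8f5 (adjusted p = 0.104) and Nat8 (adjusted p = 0.207) missed the threshold. Nat8 also missed it without the Gm19220-rich libraries (adjusted p = 0.0949) and without the libraries with adrenal markers (adjusted p = 0.0794). The transcribed pseudogene Alms1-ps2, on the opposite strand between Nat8f3 and Nat8f6, was also higher at dusk (1.43 ± 0.19, adjusted p = 0.00100). Near-identical copies can share reads, and in GENCODE the span of Nat8f5 (chr6:85817218-85820972) overlaps that of Nat8f6 (chr6:85808024-85820954) on the same strand, so the split of TPM between members is uncertain. The RefSeq promoter windows of 1 pair are near copies: those of Nat8f6 (chr6:85809828-85810127) and Nat8f7 (chr6:85708512-85708811) differed at 6 of 292 aligned bases, in capitals below.
Nat8f6: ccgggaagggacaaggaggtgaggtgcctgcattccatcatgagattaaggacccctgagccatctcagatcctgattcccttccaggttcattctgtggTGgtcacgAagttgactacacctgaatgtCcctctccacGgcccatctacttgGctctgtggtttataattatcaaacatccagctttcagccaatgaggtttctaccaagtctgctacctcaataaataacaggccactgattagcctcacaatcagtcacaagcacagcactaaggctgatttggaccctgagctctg
Nat8f7: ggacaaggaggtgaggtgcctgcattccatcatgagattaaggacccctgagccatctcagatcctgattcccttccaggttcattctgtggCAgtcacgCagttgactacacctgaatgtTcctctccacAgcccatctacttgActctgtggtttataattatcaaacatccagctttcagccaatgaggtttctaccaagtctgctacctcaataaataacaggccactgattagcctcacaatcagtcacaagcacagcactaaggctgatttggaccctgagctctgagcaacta
Both windows are on the minus strand of GRCm38.p6. They were 95.3% identical over their 300 bases, while every other pair of Nat8f windows was 55.0% to 65.0% identical.

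Lower at dusk by the widest margin after Arntl was Ppard, the lipid-activated nuclear receptor PPARδ. It ran from 4.62 to 8.04 scaled TPM at dusk (median 6.61) and from 10.0 to 32.2 at dawn (median 26.2), a difference of -1.76 ± 0.23 (adjusted p = 0.000745). Slc16a1, the lactate and ketone transporter MCT1, was at 4.35 to 7.29 (median 5.37) against 9.50 to 16.9 (median 14.9), with -1.24 ± 0.15 (adjusted p = 0.000348). The groups did not overlap in either gene, which was a condition for naming the genes of this group. Palm3, a paralemmin, was at 3.67 to 5.65 against 9.71 to 13.9 (-1.23 ± 0.10, adjusted p = 2.15e-05). Ndrg1, a stress and hypoxia responsive gene, was the most abundant of the genes lower at dusk, at 371 to 723 (median 460) against 877 to 1206 (median 970), with -1.02 ± 0.15 (adjusted p = 0.00163).

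The next largest differences without overlap included 3 enzymes. Ethe1, which clears sulfide in mitochondria, was at 31.3 to 49.7 scaled TPM at dusk (median 38.6) and 68.9 to 94.1 at dawn (median 77.2), a difference of -1.01 ± 0.10 (adjusted p = 8.17e-05). Ddc, the decarboxylase that makes dopamine in proximal tubule cells, was at 27.5 to 39.2 (median 31.8) against 57.7 to 73.2 (median 66.0), with -1.004 ± 0.09 (adjusted p = 3.52e-05). Acmsd, which steers tryptophan breakdown away from NAD, was at 33.5 to 52.2 (median 43.3) against 65.3 to 98.7 (median 83.9), with -0.96 ± 0.12 (adjusted p = 0.000567). In all 3 enzymes every dusk mouse lay below every dawn mouse, as the naming rule required. Dcdc2a (-0.86 ± 0.14, adjusted p = 0.00221), the fatty acid binding protein Fabp7 (-0.75 ± 0.15, adjusted p = 0.00876), the guanine nucleotide exchange factor Arhgef39 (-0.75 ± 0.12, adjusted p = 0.00221) and the endosomal sorting protein Vps37d (-0.75 ± 0.14, adjusted p = 0.00663) also had no overlap. Of the 12 genes with Arntl, Fabp7 had an adjusted p of 0.0524 without the Gm19220-rich libraries and Fabp7 and Vps37d had 0.0746 and 0.0835 without 1:30, and the other 10 stayed past 0.05 in all 4 settings.

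**Figure D3:**
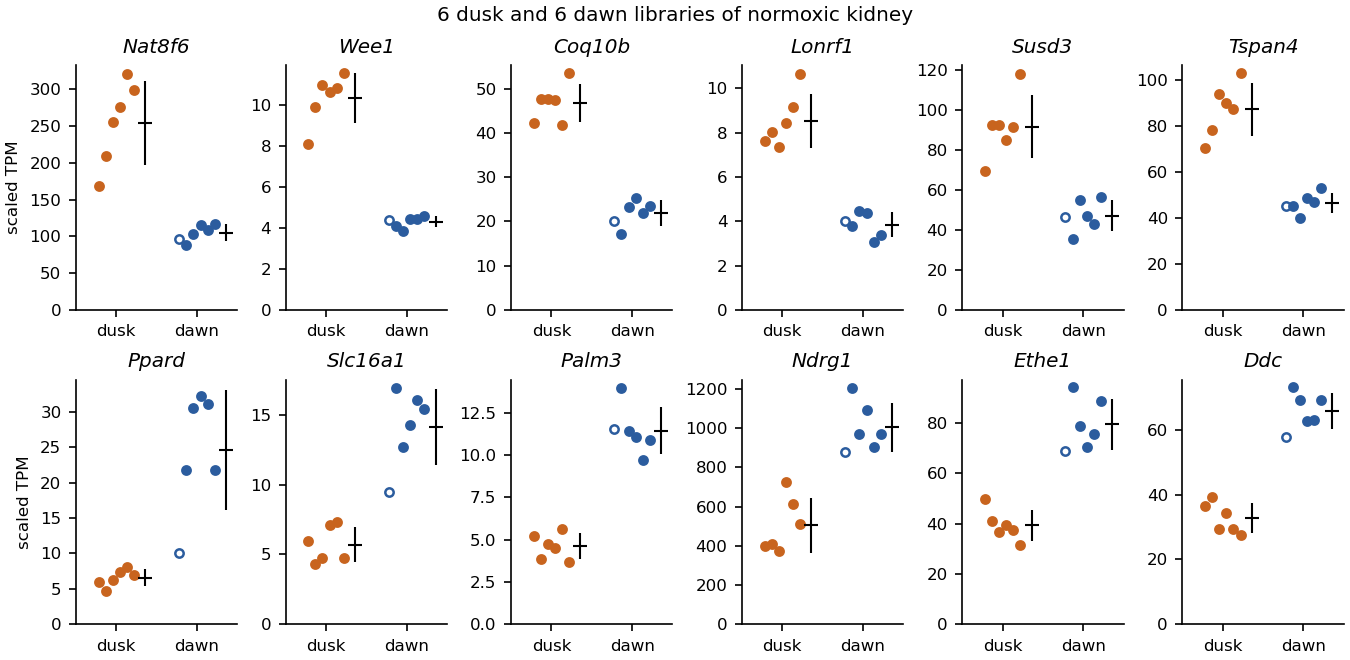
Scaled TPM of called genes in each of the 6 dusk (orange) and 6 dawn (blue) libraries, with 1 point per library in the order of the labelled time, the mean and SD as a black mark and bar, and an open circle for 1:30 replicate 1. Wee1 stands at 10.4 ± 1.21 and 4.31 ± 0.267 (SD, n = 6 each).

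In the lists below, the counts stand beside 4.57% of all genes tested that passed in either direction, and nothing is read from them about the lists. Of 25 tested genes of sodium transport and its control, 1 was higher at dusk, Tsc22d3, a glucocorticoid-induced leucine zipper protein (25.4 to 57.1 scaled TPM, median 43.8, against 14.3 to 33.0, median 21.0, 0.96 ± 0.21, adjusted p = 0.0174, and an adjusted p of 0.179 without 1:30). Fxyd2, a regulatory subunit of the sodium pump, did not pass (0.04 ± 0.10, adjusted p = 0.845), and the median of the list was 0.02 beside 0.03 over all genes. For water, 1 of 9 was higher at dusk, Aqp11 (0.24 ± 0.06, adjusted p = 0.0481), an aquaporin of intracellular membranes. The water channels Aqp1 (325 to 474 against 331 to 443) and Aqp2 (197 to 276 against 157 to 290) overlapped almost fully. The carnitine transporter Slc22a5 was the 1 of 16 organic solute transporters that passed (0.39 ± 0.06, adjusted p = 0.00194, list median -0.04). Without the libraries with adrenal markers neither Aqp11 (adjusted p = 0.396) nor Slc22a5 (adjusted p = 0.0657) passed. Their differences in the 8 libraries left were 0.21 and 0.39. Aqp11 also missed the threshold without the Gm19220-rich libraries (adjusted p = 0.136), without the close pair (adjusted p = 0.0725) and without 1:30 (adjusted p = 0.256). Tsc22d3 missed it without the Gm19220-rich libraries as well (adjusted p = 0.0776).

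In the list of glucose and amino acid transporters, 1 of 20 was higher and 1 lower at dusk (median -0.09). These were the urate and hexose transporter Slc2a9 (0.40 ± 0.08, adjusted p = 0.0124) and the GABA and betaine transporter Slc6a13 (-0.33 ± 0.08, adjusted p = 0.0360). None of 14 genes of phosphate, calcium and vitamin D passed (median -0.22), where the phosphate transporter Slc34a1 stood at 1217 to 1901 against 1467 to 2280 (-0.17 ± 0.13, adjusted p = 0.489). Of 17 genes of acid-base transport, the carbonic anhydrase Car12 was lower at dusk (-0.35 ± 0.09, adjusted p = 0.0302, median -0.05). Without 1:30 the adjusted p was 0.0650 for Slc2a9, 0.183 for Slc6a13 and 0.232 for Car12. Without the Gm19220-rich libraries it was 0.0571, 0.107 and 0.121 in this order. Without the libraries with adrenal markers, Slc6a13 (adjusted p = 0.224) and Car12 (adjusted p = 0.311) did not pass. Slc6a13 also missed the threshold without the close pair (adjusted p = 0.0537). None of 11 tested genes of the renin-angiotensin and endothelin list passed (median -0.11). Edn1, Edn3, Ednra and Ednrb lay under the limit of 5 TPM and were not tested, so Ece1 was the sole endothelin gene tested.

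Genes of metabolism are given by list. In lipogenesis 1 of 19 was lower at dusk, Pnpla3, a lipase and acyltransferase of lipid droplets (-0.76 ± 0.17, adjusted p = 0.0183), with a list median of -0.18. Without the libraries with adrenal markers its difference was -0.46 (adjusted p = 0.248). Its adjusted p was 0.0640 without the Gm19220-rich libraries and 0.0503 without 1:30. Of 26 genes of fatty acid oxidation, 2 were higher, the carnitine-acylcarnitine carrier Slc25a20 (0.40 ± 0.07, adjusted p = 0.00384) and the thioesterase Acot12 (0.36 ± 0.10, adjusted p = 0.0492), and 1 was lower, the thioesterase Acot1 (-0.57 ± 0.13, adjusted p = 0.0213). None of 22 genes of gluconeogenesis and glycolysis passed, with Pck1, the entry enzyme of gluconeogenesis, at 582 to 1085 against 455 to 677 (0.53 ± 0.15, adjusted p = 0.0616). In cholesterol synthesis 1 of 23 was lower, Fdps (-0.51 ± 0.12, adjusted p = 0.0247). Gatm, the first enzyme of creatine synthesis, was lower (-0.54 ± 0.08, adjusted p = 0.00196) and Asl, of arginine synthesis, higher (0.33 ± 0.09, adjusted p = 0.0464), among 20 genes of amino acid and creatine metabolism. Alas1, the rate-limiting enzyme of heme synthesis, was at 164 to 434 (median 327) against 123 to 236 (median 129), a difference of 1.08 ± 0.21 (adjusted p = 0.00990), and 1 of its dawn libraries, 22:30 replicate 1, lay above the lowest dusk library. It missed the threshold without the Gm19220-rich libraries (adjusted p = 0.0548) and without 1:30 (adjusted p = 0.112). With Ephx1 (0.33 ± 0.06, adjusted p = 0.00384) it made 2 of 20 detoxification genes. Without the libraries with adrenal markers, Slc25a20 (adjusted p = 0.0587), Acot12 (adjusted p = 0.261), Fdps (adjusted p = 0.143), Gatm (adjusted p = 0.0587), Asl (adjusted p = 0.370) and Ephx1 (adjusted p = 0.0613) did not pass. Their differences in the 8 libraries left were, in this order, 0.41, 0.35, -0.49, -0.56, 0.27 and 0.34. Slc25a20 also missed the threshold without 1:30 (adjusted p = 0.0580). Fdps (adjusted p = 0.109) and Asl (adjusted p = 0.0549) missed it without the Gm19220-rich libraries.

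Stress responses and the cell cycle were read in the same way. Of 20 endoplasmic reticulum chaperones and their regulators, 3 were higher at dusk: Herpud1 of the degradation pathway (142 to 226 scaled TPM, median 181, against 93.5 to 139, median 107, 0.75 ± 0.12, adjusted p = 0.00231), the co-chaperone Dnajb9 (0.60 ± 0.10, adjusted p = 0.00384) and the transcription factor Xbp1 (0.44 ± 0.08, adjusted p = 0.00654). The list median was 0.01. Of 22 heat shock chaperones 1 was higher, Dnajb4 (0.56 ± 0.15, adjusted p = 0.0492), and the abundant Hspa8 was at 1386 to 2618 against 1162 to 1718 without passing (0.40 ± 0.15, adjusted p = 0.148). Rbm3, induced by cold, was higher in all 6 dusk libraries (116 to 139, median 124, against 74.2 to 85.1, median 82.0, 0.65 ± 0.06, adjusted p = 5.28e-05) and was the 1 of 7 cold-inducible RNA-binding proteins that passed. Of 12 genes of oxygen sensing, Bnip3, a mitophagy receptor, was higher (0.57 ± 0.09, adjusted p = 0.00194) and Ndrg1 lower. Of 13 genes of the glucocorticoid receptor and its targets, Tsc22d3 was higher and Pdk4, the kinase that shuts pyruvate dehydrogenase, lower (-0.65 ± 0.17, adjusted p = 0.0439). None of 27 proteasome subunits passed (median 0.06), and of 10 immediate early genes Ier5 was lower (-0.33 ± 0.08, adjusted p = 0.0380). In the cell cycle list 2 of 8 were higher, Wee1 and the cyclin Ccnd1 (0.40 ± 0.07, adjusted p = 0.00608). Without the libraries with adrenal markers, Xbp1 (adjusted p = 0.151), Dnajb4 (adjusted p = 0.0919), Pdk4 (adjusted p = 0.189), Ier5 (adjusted p = 0.168) and Ccnd1 (adjusted p = 0.0529) did not pass. Their differences in the 8 libraries left were, in this order, 0.39, 0.73, -0.75, -0.37 and 0.48. Without the Gm19220-rich libraries, Dnajb4 (adjusted p = 0.179), Pdk4 (adjusted p = 0.147) and Ier5 (adjusted p = 0.0771) did not pass either. Dnajb4 also missed the threshold without the close pair (adjusted p = 0.0922). Without 1:30, Dnajb4 (0.31, adjusted p = 0.402) and Ier5 (-0.40, adjusted p = 0.0581) missed it too.

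The basement membrane collagens Col4a3 (-0.61 ± 0.10, adjusted p = 0.00231) and Col4a1 (-0.62 ± 0.11, adjusted p = 0.00384) and the matrix protein Npnt (-0.64 ± 0.09, adjusted p = 0.00122), chosen after their values were seen, were lower at dusk. Without the 4 libraries with adrenal markers the adjusted p of Col4a3, Col4a1 and Npnt was 0.0587, 0.0555 and 0.0613. Their differences in the 8 libraries left were -0.52, -0.65 and -0.57.

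A cosine with a period of 24 h was fitted to all 24 normoxic kidney libraries to place the genes on the clock, and 2090 of 9179 genes (22.8%) passed at an adjusted p of 0.05, or 1250 without the close pair. Its libraries include the 12 of dusk and dawn, so that the call itself sets the side on which the peak of a called gene falls. Of the 79 called genes 78 passed. The 39 genes higher at dusk peaked between 9.16 and 15.2 h, with a median of 12.9 h, and 27 of them lay between 12 and 15 h. Dbp (9.16 h), Nr1d2 (9.34 h) and Tef (9.54 h) were the early ones, Usp2, Coq10b and Lonrf1 all followed at 11.6 h, and Wee1 (12.6 h), Per2 (13.1 h), Nat8f6 (13.1 h) and Tsc22d3 (15.1 h) came later. The 40 genes lower at dusk peaked between 21.0 and 3.37 h with a median of 23.2 h. Here Rhobtb1 (21.0 h), Arntl (21.9 h), Slc16a1 (22.0 h) and Ndrg1 (22.0 h) were early, Ppard (22.9 h) and Palm3 (23.0 h) came next, and the enzymes Ethe1 (0.783 h), Acmsd (0.848 h) and Ddc (1.24 h) followed after midnight of the labelled hours.

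**Figure D4:**
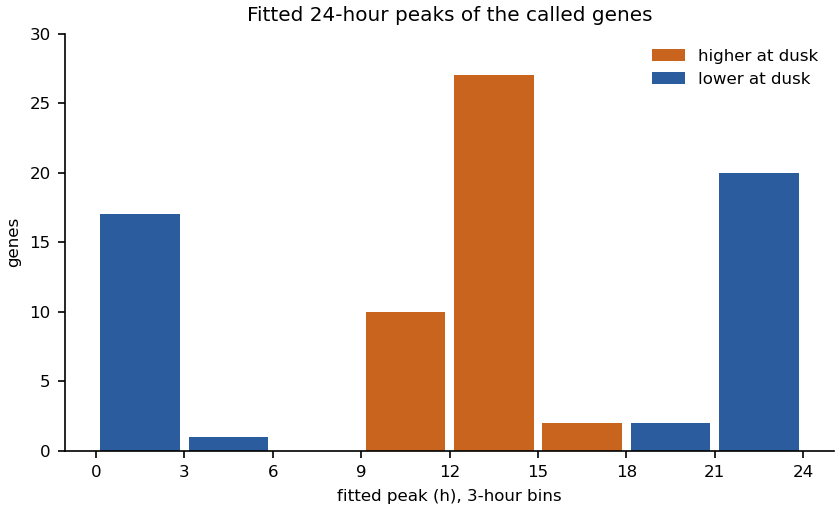
Number of called genes by fitted peak hour in bins of 3 h, orange for genes higher and blue for genes lower at dusk. The tallest orange bar holds 27 genes between 12 and 15 h and the tallest blue bars 20 genes between 21 and 24 h and 17 between 0 and 3 h.

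A second set of kidneys came from mice given IH in place of normoxia and was sampled at the same hours. There 309 of 9206 genes (3.36%) differed between dusk and dawn and 103 were called. Of the called genes of normoxia, 52 (65.8%) were called in IH as well, which is 50.5% of the IH calls. The sign was the same for 76 of 77 that could be tested, beside 72.8% of 8975 genes tested in both, and 57 also passed the adjusted p of 0.05. Arntl (-3.10 ± 0.21, adjusted p = 2.08e-06), Dbp (3.78 ± 0.34, adjusted p = 2.12e-05), Wee1 (1.18 ± 0.13, adjusted p = 0.000139), Ppard (-2.09 ± 0.13, adjusted p = 1.49e-06) and Nat8f6 (1.54 ± 0.13, adjusted p = 1.10e-05) all differed in the IH kidneys. In a limma test of the difference between the treatments themselves, 0 of 9136 genes (0%) passed once p-values were adjusted, while 202 were under 0.05 before adjustment. The 95% interval of that difference, not adjusted for the number of genes, had a median half-width of 0.40 over the called genes. Smaller differences between the treatments were not detectable here, and larger ones could also miss the adjusted threshold. The difference between the treatments was -0.90 for Dbp (95% interval -2.25 to 0.45) and -0.02 for Wee1 (-0.34 to 0.30).

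The dusk-dawn difference of the kidney was then tested against that of the liver and of the lung of normoxic mice. Both tests and the one above use the same 12 kidney libraries and are not independent, and the labels do not say whether organs with the same replicate number came from 1 mouse. Against the liver, 197 of 6575 genes (3.00%) passed, 8 of 44 tested genes called in the kidney among them. Insig2, which holds sterol regulators in the endoplasmic reticulum, was at 41.5 ± 3.19 scaled TPM at dusk and 35.4 ± 2.04 at dawn in the kidney, but at 44.3 ± 7.59 and 153 ± 36.5 in the liver (SD, n = 6 each; kidney minus liver 1.98 ± 0.18, adjusted p = 2.18e-07). The mitochondrial unfoldase Clpx was lower at dusk in both organs, by 0.71 in the kidney and by 2.31 in the liver on the log2 scale (58.3 ± 6.34 against 96.5 ± 18.6 and 23.1 ± 2.95 against 117 ± 16.8), and the difference between organs was 1.60 ± 0.17 (adjusted p = 2.82e-06). The other 4 of the 6 genes with the smallest adjusted p had little dusk-dawn difference in the kidney and a large one in the liver. For the calcium-binding Efhd2, kidney minus liver was -0.98 ± 0.10 (adjusted p = 1.34e-06), for Denn2b 1.57 ± 0.16 (adjusted p = 1.34e-06), for the glycogen synthase Gys2 -1.32 ± 0.14 (adjusted p = 2.84e-06) and for the P450 reductase Por -1.46 ± 0.17 (adjusted p = 4.93e-06). In 3 clock genes named after their values were seen, the rise toward dusk was smaller in the kidney: Usp2 rose by 0.86 against 3.12 in the liver (-2.26 ± 0.44, adjusted p = 0.00387), Tef by 0.91 against 2.24 (-1.34 ± 0.30, adjusted p = 0.0102) and Nampt by 0.55 against 1.46 (-0.91 ± 0.21, adjusted p = 0.0120). Arntl did not differ between the organs by this test (0.35, 95% interval -0.49 to 1.19), nor did Dbp pass (-2.26, 95% interval -3.58 to -0.94, adjusted p = 0.0534). Without the 4 kidney libraries with adrenal markers, 50 genes passed.

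Against the lung, 114 of 8245 genes (1.38%) passed, 16 of 54 tested genes called in the kidney among them, and 28 passed without the libraries with adrenal markers. Ethe1 was lower at dusk in the kidney and stood at 10.3 ± 0.893 and 9.20 ± 1.12 scaled TPM in the lung (kidney minus lung -1.16 ± 0.14, adjusted p = 0.000103). The same held for Slc16a1, at 12.9 ± 0.710 and 13.9 ± 0.835 in the lung (-1.13 ± 0.17, adjusted p = 0.000870), for Ppard (14.3 ± 3.07 and 13.0 ± 3.92, -1.92 ± 0.32, adjusted p = 0.00241) and for Ndrg1 (22.9 ± 4.35 and 19.8 ± 1.28, -1.21 ± 0.19, adjusted p = 0.00116). None of these 4 passed the dusk-dawn test in the lung itself. Conversely Fam107a (-2.04 ± 0.27, adjusted p = 0.000247) and the GTPase-activating protein Rap1gap (-0.86 ± 0.12, adjusted p = 0.000360) were higher at dusk in the lung and did not pass in the kidney. Dock9, an exchange factor for Cdc42, was lower at dusk in the kidney and higher in the lung (-0.75 ± 0.11, adjusted p = 0.000853), and the kinase anchor Akap7 the reverse (0.77 ± 0.12, adjusted p = 0.000870). In the kidney alone Dock9 missed the threshold in each of the 4 settings that leave out libraries (adjusted p = 0.356 and a difference of -0.18 without 1:30), and Akap7 without the libraries with adrenal markers (adjusted p = 0.296). Per2 rose in both organs, by 0.91 in the kidney and 2.40 in the lung (-1.48 ± 0.24, adjusted p = 0.00157).

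**Figure D5:**
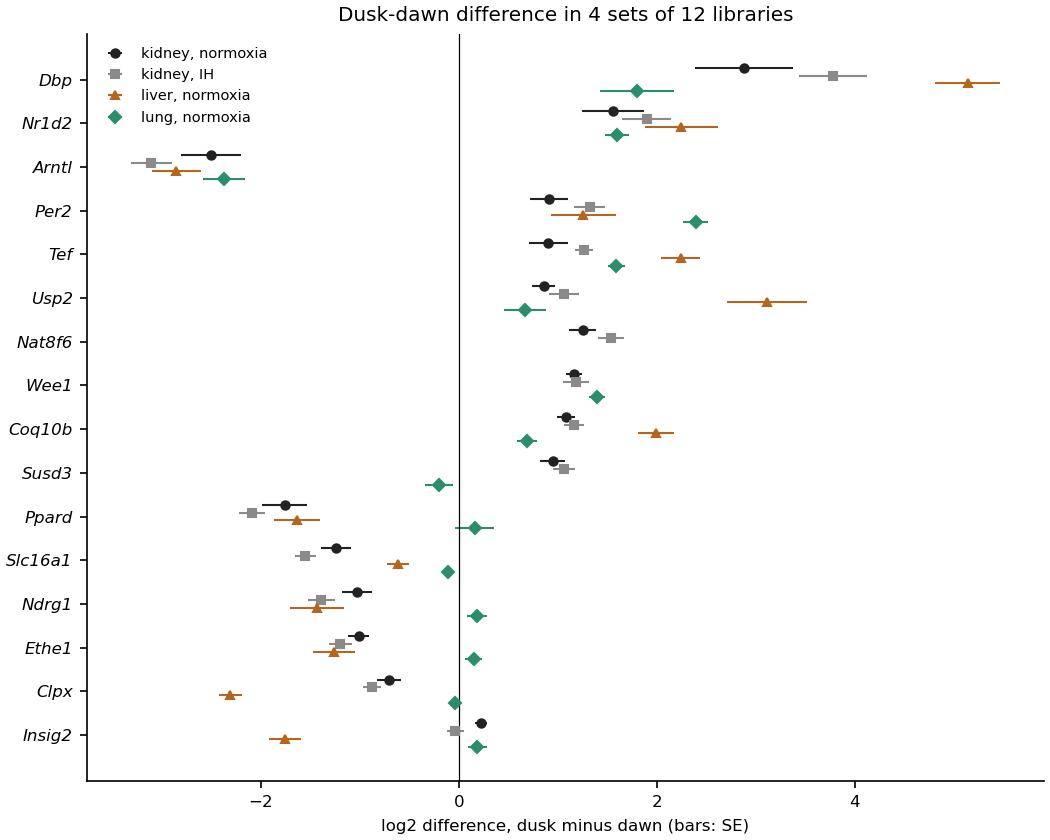
Log2 difference (dusk minus dawn) of 16 genes in 4 sets of 12 libraries, kidney in normoxia, kidney in IH, liver and lung in normoxia, with the SE as bars; a gene under the limit of 5 TPM in a set has no point there. Normoxic and IH kidneys lie side by side, and the lung stands near 0 for Ppard, Slc16a1, Ndrg1, Ethe1 and Clpx. The liver lies far from the kidney for Dbp, Usp2, Insig2 and Clpx.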

How the data were processed

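RNA was extracted with Trizol and libraries were made with a directional NEBNext kit, as the study's methods state. Reads were quantified by the authors with kallisto on Ensembl mouse release 102, and per the labels the submitters' processing notes name FastQC 0.11.3, bcl2fastq and DESeq2 and the build mm10. The values used here are TPM per gene, as the authors deposited them, without counts; they summed to 997777 to 998713 per kidney library. The 36 columns of other hours in the tables of IH kidney, liver and lung were not needed and were read by no script.

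TPM were scaled per library by the median over genes of the ratio to their geometric mean, logged as log2(TPM + 0.5) and fitted with limma 3.58.1 (R 4.3.3; trended prior variance, two-sided, Benjamini-Hochberg). Genes had a mean TPM of at least 5. A call needed at least a 1.5-fold difference besides an adjusted p of at most 0.05. Rhythms were fitted as a cosine of 24 h, and differences between treatments or organs as interactions, organs scaled apart. The code was tested on simulated data. Motifs were searched in RefSeq promoters (GRCm38.p6), and gene positions came from GENCODE M21. Genes named are those of the clock lists, the 12 largest non-overlapping called differences in each direction (predicted genes left out), the called members with the 4 smallest adjusted p and the 2 most abundant uncalled members of each other list and the 6 smallest adjusted p of each organ test. Beyond this rule, list members that passed the adjusted p without the fold threshold and clock output genes in the organ tests were named after their values were seen. Members and lists were chosen with earlier results of these data known. On unscaled TPM, same-numbered replicates of dusk and dawn had a median r of -0.01 over 12 pairs, 3 above 0.1. Pairs with different numbers had a median of -0.002 over 24 pairs, 8 above 0.1. Within dusk or dawn, r of same-numbered pairs ran from -0.42 to 0.37. Numbers were not used as pairs. Figures were drawn with matplotlib 3.10.9 in Python 3.11.15. Results for some genes are not reported here.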

Additional observations from a re-analysis of the deposited data

Results flagged for a closer look

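Among 242 groups of 6 libraries, 11 held a library that lay far from the other 5, where chance gives about 1 in 20. At dawn, 1:30 replicate 1 was high in Dbp (48.02 scaled TPM), Tef (113.8) and Alms1-ps2 (6.171), 1:30 replicate 2 in Jund (142.2), 1:30 replicate 3 in Hmgcs1 (256.7), 22:30 replicate 1 in Alas1 (235.5) and 22:30 replicate 3 in Nat8 (273.7). At dusk, 13:30 replicate 2 was high in Clock (8.67) and Slc16a6 (6.626), and 10:30 replicate 3 in Ccnd1 (79.43) and Dock9 (15.31). 1:30 replicate 1 is the dawn library of the close pair.

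The dusk-dawn difference of the kidney differed from that of the liver (limma interaction, adjusted p of at most 0.05) in 14 of the genes named. Of these, Insig2, Efhd2, Denn2b, Clpx, Gys2 and Por were named for their small adjusted p in this same test. The count is thus partly set by the choice of genes and cannot be compared with the 3.00% of all genes tested that passed. Kidney minus liver on the log2 scale was positive for Insig2 (1.982), Hmgcs1 (1.934), Clpx (1.605) and Denn2b (1.569). It was negative for Usp2 (-2.258), Mt1 (-1.852), Por (-1.461), Tef (-1.336), Gys2 (-1.317), Efhd2 (-0.9789), Herpud1 (-0.9246), Coq10b (-0.9142), Nampt (-0.9091) and Col4a1 (-0.7015).

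Against the lung 16 differed. Here Fam107a, Rap1gap, Dock9 and Akap7 were named for their small adjusted p in the lung test. This count, too, is partly set by the choice of genes and cannot be compared with the 1.38% of all genes tested that passed. Kidney minus lung was positive for Susd3 (1.149), Akap7 (0.7691), Lonrf1 (0.5066) and Bnip3 (0.4494). It was negative for Fam107a (-2.039), Ppard (-1.92), Rhobtb1 (-1.676), Per2 (-1.485), Ndrg1 (-1.211), Ethe1 (-1.163), Slc16a1 (-1.133), Rap1gap (-0.8644), Hlf (-0.7664), Dock9 (-0.7526), Clpx (-0.6707) and Tspan4 (-0.6085).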

How the results depend on the processing

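Leaving out the mice of each replicate number in turn gave 39 to 94 called genes in place of 79, 19 to 42 higher and 20 to 52 lower at dusk, 473 to 1150 cosine genes in place of 2090 (lowest without replicate 1), 45 to 147 differences from the liver in place of 197 and 10 to 19 from the lung in place of 114. Without the 1.5-fold threshold 414 genes passed, 246 higher and 168 lower at dusk. Genes lower at dusk numbered 23 with a pseudocount of 2, 64 with a mean TPM of at least 1 and 16 with TPM as deposited, in place of 40, and genes higher at dusk numbered 18 without the 13:30 libraries in place of 39. With TPM as deposited there were 1120 cosine genes, 76 differences from the liver and 11 from the lung. The other filters gave 342 (no filter) for the liver and 176 (mean TPM of at least 1) and 226 (no filter) for the lung. A replicate block gave 77 called genes and 333 differences from the liver, although the labels do not say that the numbers pair the samples. In settings chosen after seeing the data, there were 1250 cosine genes without the close pair, and 50 and 28 differences from liver and lung without the 4 libraries with adrenal markers. The cause of these changes was not tested. Between normoxia and IH no gene passed (limma) in any setting run, with 26 to 934 genes at an unadjusted p under 0.05. No called gene tested changed sign. Depth is unknown from TPM, and genes under 5 TPM are the least certain. Of 2080 values for single genes of the dusk-dawn comparison, 1871 kept their side of the threshold, 200 fell short of it and 9 newly passed, and 7 of 78 values fell short against the lung (Rap1gap, Dock9, Akap7 and Slc16a1).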
